A study of Mus musculus with 9 samples.

Results

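Myelin protein genes encode the structural and adhesive proteins of the sheath that oligodendrocytes wrap around axons. The 9 genes described here were Mbp, Mag, Mog, Cnp, Cldn11, Opalin, Ermn, Mal and Mobp, out of 31053 genes listed for every nucleus. They were taken by name, with no threshold on their values, though with earlier results of these data known. Their levels were read mainly in oligodendrocyte nuclei, which were recognised by St18, Prr5l and Mobp, and which numbered 20341 of 70336 nuclei kept. Mobp therefore served both as a marker and as a gene described, whereas the other 8 played no part in the selection. The 9 genes were left out of the genes used for clustering.

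The data were single-nucleus RNA sequencing of cortex and hippocampus, pooled within a mouse, with 1 library for each of 9 male wild-type C57BL/6 mice. The mice formed 3 groups of 3, and every mouse had received an adeno-associated virus 8 weeks before the tissue was taken, so no group was free of virus. The young AAV-EGFP mice were 5 months old and carried EGFP alone, the aged AAV-EGFP mice were 19 months old and carried the same control virus, and the aged AAV-B3GNT3 mice were 19 months old and carried B3GNT3, a glycosyltransferase that lengthens the O-linked sugar chains of mucins. The capsid was PHP.V1 and the promoter came from Cldn5, which directs expression to brain endothelial cells and not to oligodendrocytes. The comparison of aged with young AAV-EGFP mice asked what ageing changed, and that of aged AAV-B3GNT3 with aged AAV-EGFP mice asked what endothelial B3GNT3 changed in the aged brain. By the paper, aged mice came from the National Institute on Aging and young mice from Jackson Laboratories. Age and supplier thus cannot be told apart in any comparison with the young mice.

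Myelin is a stack of oligodendrocyte membrane from which cytoplasm has been squeezed out. Mbp, a basic cytosolic protein, zips the inner membrane faces together, and Mobp is a small basic protein of the same compartment. Cnp holds open the cytoplasmic channels that remain, Cldn11 forms the tight junctions between lamellae, and Mal is a proteolipid of membrane sorting. Mag lies on the innermost membrane facing the axon, Mog on the outermost face of the sheath, Opalin is a transmembrane glycoprotein of mature oligodendrocytes, and Ermn binds the actin cytoskeleton. Nuclear RNA reports on transcription and on transcripts not yet exported. Mbp and Mobp mRNAs are known for transport into myelin processes, which a nuclear preparation does not sample.

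The genes lay on 8 chromosomes in the GENCODE vM21 annotation of GRCm38, and all 9 were protein coding. Ermn (chr2:58045113-58052864, minus strand) and Mal (chr2:127633226-127656695, minus strand) shared chromosome 2. Mag lay at chr7:30899176-30914873 (minus), Mog at chr17:37010743-37023398 (minus), Cnp at chr11:100574904-100591729 (plus), Cldn11 at chr3:31149920-31164324 (plus), Opalin at chr19:41061710-41077113 (minus) and Mobp at chr9:120149707-120181484 (plus). Cnp overlapped Dnajc7 and Ermn overlapped Galnt5 on the opposite strand, and Mobp overlapped Gm38642 on its own strand. Reads from the overlapping stretches could be assigned to either gene if strand had not been used, and the level of Mobp was uncertain in the same way for its same-strand partner.

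Promoters are shown for the 3 genes that changed in oligodendrocytes (Opalin, Cnp and Mog) and for Mobp. Mobp did not pass the test in any comparison there, but it helped to choose the class, so its tests are a description only. Each window runs from 250 bases before to 50 bases after the annotated start in RefSeq for GRCm38.p6, and 8 of the 9 genes had such a window. None is shown for Mbp. Capitals mark matches to the letters ACAAAG (a core recognised by Sox factors), CTGGCAC (a core recognised by Myrf) and CAGCTG (an E-box), on either strand, so that CTTTGT and GTGCCAG are also in capitals. No match overlapped another.
Opalin, chr19:41077064-41077363, minus strand: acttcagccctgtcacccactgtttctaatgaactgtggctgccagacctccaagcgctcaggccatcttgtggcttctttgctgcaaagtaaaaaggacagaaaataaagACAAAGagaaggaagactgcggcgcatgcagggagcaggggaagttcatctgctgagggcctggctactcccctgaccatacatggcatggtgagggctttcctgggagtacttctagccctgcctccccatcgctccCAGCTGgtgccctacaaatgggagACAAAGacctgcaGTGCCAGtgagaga
Cnp, chr11:100574689-100574988, plus strand: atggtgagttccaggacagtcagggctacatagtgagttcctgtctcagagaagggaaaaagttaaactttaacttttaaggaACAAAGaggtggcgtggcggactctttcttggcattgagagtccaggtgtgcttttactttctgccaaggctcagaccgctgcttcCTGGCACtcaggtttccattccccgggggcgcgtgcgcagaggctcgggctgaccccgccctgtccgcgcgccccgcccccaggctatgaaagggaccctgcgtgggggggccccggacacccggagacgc
Mog, chr17:37023349-37023648, minus strand: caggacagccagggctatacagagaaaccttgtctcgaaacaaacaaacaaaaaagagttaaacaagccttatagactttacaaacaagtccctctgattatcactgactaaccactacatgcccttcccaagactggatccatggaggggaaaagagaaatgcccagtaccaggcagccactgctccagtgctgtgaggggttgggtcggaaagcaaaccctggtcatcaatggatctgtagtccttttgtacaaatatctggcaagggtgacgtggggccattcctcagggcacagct
Mobp, chr9:120149492-120149791, plus strand: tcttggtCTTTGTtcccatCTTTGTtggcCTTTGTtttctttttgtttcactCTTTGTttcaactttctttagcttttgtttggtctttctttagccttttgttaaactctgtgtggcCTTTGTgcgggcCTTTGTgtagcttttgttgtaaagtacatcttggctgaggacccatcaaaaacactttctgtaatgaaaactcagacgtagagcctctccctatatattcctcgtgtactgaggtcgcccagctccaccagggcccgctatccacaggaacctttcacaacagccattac

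The 4 windows differed in what they held. Opalin had 2 ACAAAG matches, 1 CTGGCAC match and 1 E-box, and Cnp had 1 ACAAAG and 1 CTGGCAC match. Mobp had 6 ACAAAG matches, all in the letters CTTTGT, and neither of the others. Mog had no match, nor did Ermn, Mal or Cldn11. Mag had 3 annotated windows, of which 2 held 1 ACAAAG and 1 CTGGCAC match each. Among all 32851 promoter windows of this length, 18.7% held ACAAAG, 5.01% held CTGGCAC and 16.3% held CAGCTG. At least 2 ACAAAG matches occurred in 2.37% of windows, and at least 5 in 0.00913%. The 3 genes that changed thus had different matches. Mobp, with the most matches, helped to choose the class and is not set against them as an unchanged gene. A match is only a run of letters, and these windows say nothing of binding in the mice.

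The 9 libraries held 6331 to 10264 barcodes and 47332047 to 79964605 unique molecular identifiers (UMIs, each counting 1 RNA molecule), and 5777 to 9276 nuclei per library were kept, with median UMIs of 3023 to 5270. Of 69748 distinct barcodes among the nuclei kept, 582 occurred in more than 1 library. Oligodendrocytes made up 20.7 to 28.3% of nuclei in the young, 27.8 to 33.5% in the aged AAV-EGFP and 30.4 to 35.3% in the aged AAV-B3GNT3 mice. St18 was detected in 97.4% of the oligodendrocyte nuclei against 19.1% of other nuclei, Prr5l in 96.8% against 10.4% and Mobp in 88.0% against 11.2%. These 3 genes chose the class, so their shares are a description of it only. B3gnt3 was too sparse in endothelial nuclei (0 to 6 UMIs per library) to check the labels.

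In 2 libraries the oligodendrocytes stood apart. In aged AAV-EGFP replicates 2 and 3, 88.6% and 87.8% of oligodendrocyte nuclei fell into a subcluster, called subcluster 1, led by 1700042O10Rik, Olig2, H3f3b, Ubb and Fth1. The share was 33.0% in aged AAV-EGFP replicate 1, 0.417 to 0.994% in the young mice, and 3.12%, 0.676% and 11.9% in aged AAV-B3GNT3 replicates 1 to 3. Most calls below that rest on the aged AAV-EGFP group are therefore given with and without replicates 2 and 3, a choice made after the data were seen. Other results, such as UMIs per nucleus, detection shares and the subtraction of free RNA, are not given without both. Without both, 1 aged AAV-EGFP library remained, and it was assumed to vary like the other groups. Neuronal RNA in oligodendrocyte nuclei also differed: a set of neuron genes summed to 1328 to 1602 CPM (UMIs scaled to the same total in every sum) in young, 728 to 1213 in aged AAV-EGFP and 1076 to 1397 in aged AAV-B3GNT3 oligodendrocytes. A subcluster of 73 nuclei, with a median of 9304 UMIs, had Dlx6os1, a marker of inhibitory neurons, among its leading genes. It held 34 nuclei of young replicate 2 and at most 17 of any other mouse, and its part in these sums was not tested.

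Per kilobase of exon, Mog and Mbp had the highest values of the members in young oligodendrocytes, at 358 ± 9.46 and 325 ± 29.1 CPM per kb (SD, n = 3), and the highest Mbp mouse lay just below the lowest Mog mouse. Mobp followed at 243 ± 78.2, Cldn11 at 173 ± 27.7, Mag at 126 ± 18.9 and Mal at 101 ± 17.6 CPM per kb, and these neighbours lay within or close to each other's SDs. Opalin had 77.3 ± 15.6 CPM per kb, below Mal by more than its SD, and Ermn at 35.1 ± 1.56 and Cnp, the protein of cytoplasmic channels, at 25.2 ± 3.83 CPM per kb lay apart. In aged AAV-EGFP mice Mog reached 592 ± 48.9 and Mbp 378 ± 53.0 CPM per kb, and Opalin, at 172 ± 1.78, stood level with Cldn11 at 173 ± 9.40. The reads came from a 3′ method, in which a UMI counts 1 molecule, so exon length is a rough scale. This order need not be that of molecules. In CPM as scaled for the tests below, young mice had 2824 ± 281 for Mbp, 1710 ± 587 for Mobp and 626 ± 26.2 for Mog (SD, n = 3).

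With ageing, 3 of the 9 genes rose in oligodendrocytes: Opalin 2.24-fold, Cnp 1.97-fold and Mog 1.66-fold. No member fell. Levels are given as CPM scaled by the trimmed mean of M-values (TMM) over UMIs summed per mouse, and each test was the quasi-likelihood test of edgeR with p adjusted over all genes. Among 13237 genes tested, 21.3% were called for ageing at an adjusted p under 0.05, 11.2% of them higher and 10.1% lower, as shares of all genes tested. The median log2 fold change was 0.36 over the 9 members and 0.03 over all genes. Without aged AAV-EGFP replicates 2 and 3 these medians were 0.09 and 0.0009.

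Opalin had 283, 205 and 211 CPM in young replicates 1 to 3, and 523, 534 and 509.6 CPM in aged AAV-EGFP replicates 1 to 3. Every aged value lay far above every young one, and the aged values were close to each other. The log2 fold change was 1.16 (SE 0.19, 95% interval 0.75 to 1.57, adjusted p = 0.0030). Cnp had 106, 79.2 and 95.8 CPM in young and 143, 215 and 196 CPM in aged AAV-EGFP mice, again without overlap, with replicate 1 the lowest of the aged mice. Its log2 fold change was 0.98 (SE 0.16, 95% interval 0.62 to 1.33, adjusted p = 0.0032). Mog, the outer-face glycoprotein, had 618, 605 and 655 CPM in young and 931, 1136 and 1050.1 CPM in aged AAV-EGFP mice. The groups were again apart, and the log2 fold change was 0.73 (SE 0.13, 95% interval 0.44 to 1.02, adjusted p = 0.0040).

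These 3 calls were lost without the libraries that stood apart. Without aged AAV-EGFP replicates 2 and 3, Opalin kept a log2 fold change of 1.16 but with an adjusted p of 0.0515, Cnp had 0.60 (adjusted p = 0.113) and Mog 0.57 (adjusted p = 0.113) by the same edgeR test. No member was called then, although 5 of 9 had an unadjusted p under 0.05, and 0.836% of all genes were called. Without replicate 1 instead, 5 members were called, Ermn and Mal in addition, as were 28.7% of all genes. DESeq2 also called 3, and 18.2% of all genes. In the 19210 of 20341 oligodendrocyte nuclei with both St18 and Prr5l, all 3 genes were again called, as were 21.4% of all genes. The log2 fold changes were 1.18 for Opalin and 0.74 for Mog. These nuclei are most of the same class, which Mobp helped to choose, so this fit is no separate check of the selection.

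The other 6 genes did not pass the test for ageing. Mag, the glycoprotein facing the axon, had 607, 464 and 509 CPM in young and 717, 659 and 648 CPM in aged AAV-EGFP mice, and the groups did not overlap. Its log2 fold change was 0.36 (adjusted p = 0.071), and with the replicate number as a block it passed (adjusted p = 0.0488), where 21.6% of all genes were called. Ermn, the actin-binding protein, had 135, 127 and 130.2 CPM in young and 139, 176 and 181 CPM in aged AAV-EGFP mice, apart but with replicate 1 close to the young (log2 fold change 0.34, adjusted p = 0.077). Mal had 281, 237 and 346 CPM in young and 276, 468 and 409 CPM in aged AAV-EGFP mice, which overlapped (0.42, adjusted p = 0.126). For these 3 genes the 95% intervals ran from 0.07 to 0.64, from 0.06 to 0.62 and from 0.01 to 0.82 on the log2 scale.

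Mbp, Mobp and Cldn11 also did not pass. Mbp, at chr18:82475146-82585637 on the plus strand, had 2879.6, 2520.2 and 3073 CPM in young and 2749, 3782 and 3365 CPM in aged AAV-EGFP mice, and the ranges overlapped. Its log2 fold change was 0.22 (95% interval -0.10 to 0.55, adjusted p = 0.295), so an increase of the size seen for Opalin lay outside the interval. Mobp had 1267, 1487 and 2376 CPM in young and 966, 1637 and 1848 CPM in aged AAV-EGFP mice, the widest spread of the 9 genes relative to the mean in both groups. Its log2 fold change was -0.20 (95% interval -0.73 to 0.32, adjusted p = 0.574). Mobp helped to choose the class, so this test is a description only. Cldn11, the tight junction protein, had 269, 341 and 386 CPM in young and 309.8, 355 and 337 CPM in aged AAV-EGFP mice. The log2 fold change was 0.01 (95% interval -0.30 to 0.32, adjusted p = 0.966).

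**Figure D1:**
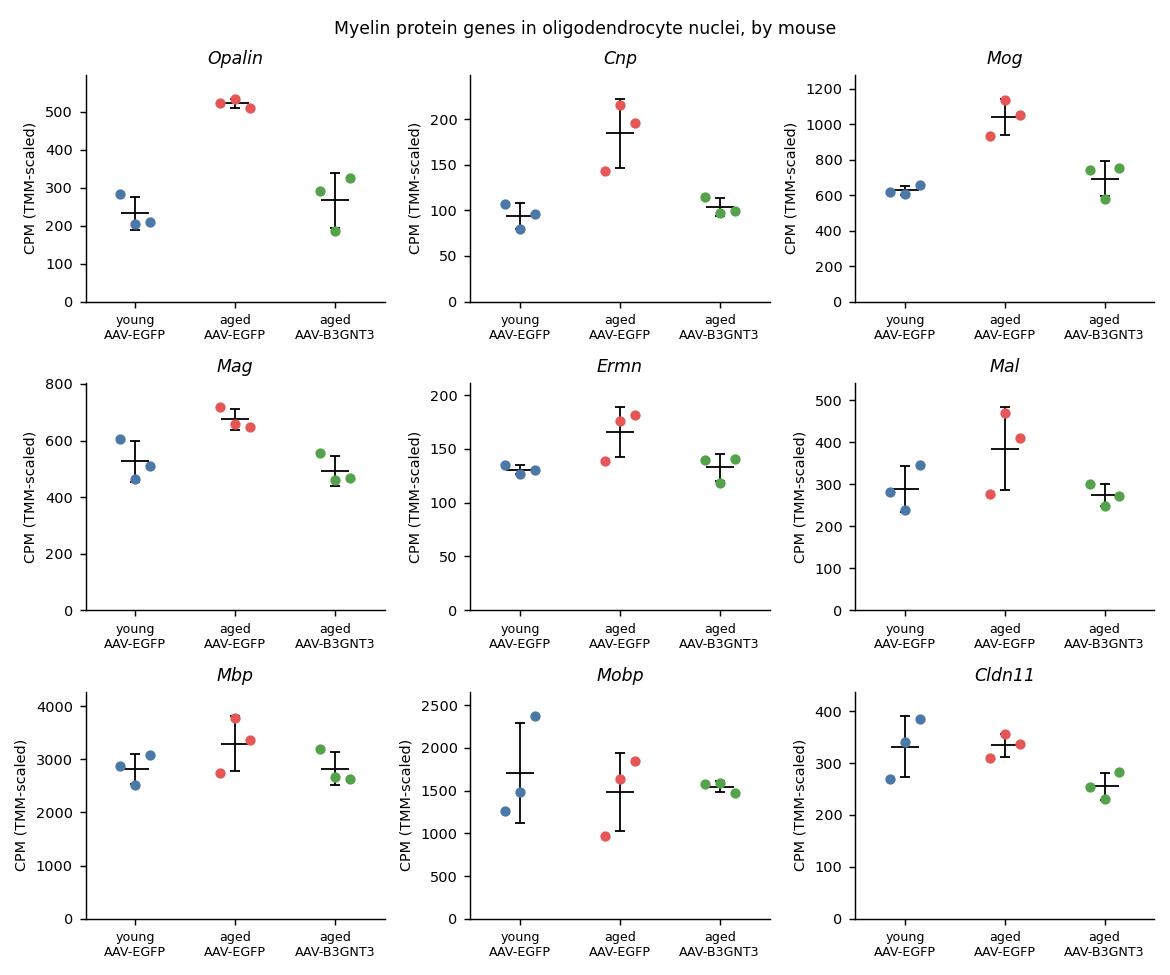
TMM-scaled CPM of each gene in oligodendrocyte nuclei (vertical axes, starting at 0) for the 3 mice of each group (points, replicates 1 to 3 from left to right), with the mean (long bar) and SD (whiskers). The 3 aged AAV-EGFP mice lie above all others for Opalin, Cnp, Mog and Mag, while Mobp overlaps among all groups.

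With AAV-B3GNT3, Opalin, Cnp and Mog fell in aged oligodendrocytes: Opalin to 0.51, Cnp to 0.56 and Mog to 0.67 times the aged AAV-EGFP level, and no member rose. Of 13237 genes tested, 9.12% were called, 3.36% higher and 5.76% lower (445 and 762 genes). With raw totals in place of TMM 10.4% were called, 794 higher and 587 lower, the median gene shifted by 0.10 on the log2 scale, and Opalin at -0.86, Cnp at -0.73 and Mog at -0.48 were still called. The median log2 fold change was -0.45 over the members and 0.00 over all genes. Without aged AAV-EGFP replicates 2 and 3 these medians were -0.28 and 0.02. This comparison and that of ageing share the aged AAV-EGFP libraries, so a high value in those libraries enters both with opposite sign, and the results stand side by side and not as separate support.

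Opalin had 290.2, 186 and 325 CPM in aged AAV-B3GNT3 replicates 1 to 3, all below the lowest aged AAV-EGFP mouse at 509.6 CPM, and spread more widely than that group. The log2 fold change was -0.97 (SE 0.19, 95% interval -1.37 to -0.56, adjusted p = 0.0134). Cnp had 115, 97.5 and 99.1 CPM against 143 or more in aged AAV-EGFP mice, with a log2 fold change of -0.83 (SE 0.16, 95% interval -1.18 to -0.48, adjusted p = 0.0133). Mog had 741, 579 and 754.6 CPM against 931 or more, with a log2 fold change of -0.59 (SE 0.13, 95% interval -0.88 to -0.30, adjusted p = 0.0221). In all 3 genes every AAV-B3GNT3 mouse was below every aged AAV-EGFP mouse. For each of the 3 genes, replicate 2 was the lowest of its group.

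None of the 3 falls held in every fit. With the members kept among the genes used for clustering, Opalin was at -0.83 (adjusted p = 0.0744), Cnp at -0.71 (adjusted p = 0.0823) and Mog at -0.45 (adjusted p = 0.122). Without aged AAV-EGFP replicates 2 and 3, Opalin was at -0.97 (adjusted p = 0.0887), Cnp at -0.46 (adjusted p = 0.230) and Mog at -0.43 (adjusted p = 0.242), and without aged AAV-B3GNT3 replicate 2 they were at -0.73 (adjusted p = 0.0622), -0.76 (adjusted p = 0.0777) and -0.44 (adjusted p = 0.125). No member was called in any of these 3 fits, with 3, 5 and 4 of 9 at an unadjusted p under 0.05 by edgeR. Over all genes 1.49%, 1.02% and 0.505% were called in these fits.

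Among the other members, Mag had 555, 459 and 467 CPM in aged AAV-B3GNT3 mice and did not overlap the aged AAV-EGFP mice, with a log2 fold change of -0.45 (95% interval -0.74 to -0.16, adjusted p = 0.0518). With DESeq2, and with the replicate number as a block in edgeR (adjusted p = 0.0337), Mag was called, as were 9.57% and 10.4% of all genes. Cldn11 had 254, 230.1 and 282 CPM, also below every aged AAV-EGFP mouse, at -0.39 (adjusted p = 0.108). Mal, with 301, 247 and 272 CPM, was at -0.49 (adjusted p = 0.117) and Ermn, with 140.1, 119 and 140.4 CPM, at -0.32 (adjusted p = 0.139). Both overlapped the aged AAV-EGFP range, at its low end. Mbp had 3194, 2662 and 2625 CPM and was at -0.22 (95% interval -0.55 to 0.10, adjusted p = 0.361). Mobp had 1580.4, 1584 and 1472 CPM and was at 0.06 (95% interval -0.47 to 0.59, adjusted p = 0.902), again a description only.

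Aged AAV-B3GNT3 oligodendrocytes differed from young ones in 0 of the 9 genes by edgeR and in 0 by DESeq2, with 1 of 9 at an unadjusted p under 0.05 by each tool (Cldn11 by edgeR), and 1.4% of all genes were called by edgeR (185 genes) and 3.3% by DESeq2. That count was unstable: by edgeR it ran from 22 without young replicate 2 to 502 without aged AAV-EGFP replicate 1, with 39 without young replicate 3 and 42 and 61 without aged AAV-B3GNT3 replicate 1 or 3. The log2 fold change was 0.20 for Opalin (95% interval -0.21 to 0.60), 0.14 for Cnp (-0.21 to 0.50) and 0.14 for Mog (-0.14 to 0.43). These intervals do not show equal levels, since each holds rises up to its upper bound. Cldn11 was at -0.38 (95% interval -0.69 to -0.07, adjusted p = 0.215).

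**Figure D2:**
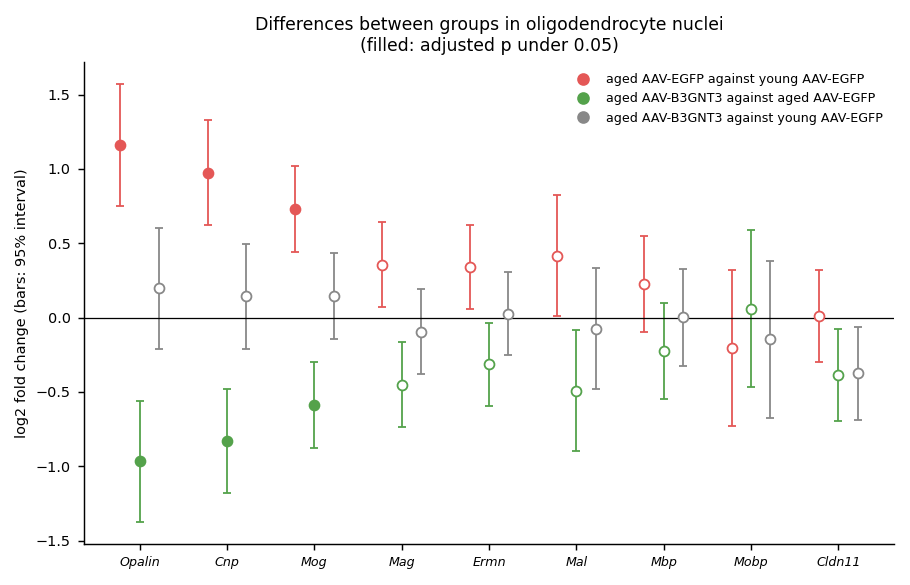
Log2 fold change of each gene in oligodendrocyte nuclei (vertical axis) with its 95% interval, for aged against young AAV-EGFP (red), aged AAV-B3GNT3 against aged AAV-EGFP (green) and aged AAV-B3GNT3 against young (grey), with filled points at an adjusted p under 0.05. Only Opalin, Cnp and Mog have filled points, from 0.73 to 1.16 for ageing and from -0.97 to -0.59 for AAV-B3GNT3.

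The rise of the 3 genes with ageing was also seen per nucleus, a scale on which other genes do not enter. Median UMIs per oligodendrocyte nucleus were lower in aged AAV-EGFP mice (1530 to 1880) than in young (2144 to 2503) and ranged from 1729.5 to 2419 in aged AAV-B3GNT3 mice. Opalin had 0.664, 0.489 and 0.544 UMIs per nucleus in young and 1.02, 0.848 and 1.03 in aged AAV-EGFP mice. Mog had 1.45, 1.44 and 1.69 against 1.81, 1.80 and 2.12, and Cnp had 0.250, 0.189 and 0.247 against 0.277, 0.342 and 0.395 UMIs per nucleus. The groups did not overlap for these 3 genes (two-sided exact permutation p = 0.1 each, the smallest that 3 mice against 3 allow), whereas 47.5% of all genes were without overlap, 6.32% higher and 41.1% lower. All the other members overlapped and had lower means in aged AAV-EGFP than in young mice. These were 6.05 against 6.90 for Mbp, 2.74 against 4.21 for Mobp and 0.616 against 0.813 for Cldn11. Closer were Mag (1.25 against 1.28), Ermn (0.305 against 0.318) and Mal (0.703 against 0.706).

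In the comparison of AAV-B3GNT3 with aged AAV-EGFP mice, no member was free of overlap in UMIs per nucleus, while 33.7% of all genes were, 3.37% lower and 30.3% higher. Opalin had 0.726, 0.361 and 0.886 UMIs per nucleus in aged AAV-B3GNT3 mice, so that replicate 3 reached into the aged AAV-EGFP range. Mog had 1.86, 1.13 and 2.06, with replicates 1 and 3 inside that range, and Cnp had 0.287, 0.190 and 0.270. The falls given above are on a scale relative to the other RNA of the nuclei. In UMIs per nucleus, which are not matched for depth, the groups overlapped. The means of aged AAV-B3GNT3 against aged AAV-EGFP mice were 0.658 against 0.965 for Opalin, 1.68 against 1.91 for Mog and 0.249 against 0.338 for Cnp.

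Detection was also compared at matched depth. Nuclei were thinned to 1000 UMIs each, which left out 939 of 20341. Depth differed between the groups, and each aged AAV-EGFP library lost a larger share of its nuclei in this step than any other library. Opalin was then detected in 23.8%, 18.1% and 17.5% of young, 37.7%, 38.8% and 39.1% of aged AAV-EGFP and 26.4%, 16.8% and 29.1% of aged AAV-B3GNT3 oligodendrocyte nuclei. Mog was detected in 43.1 to 44.2%, 57.3 to 63.0% and 43.2 to 50.6%, and Cnp in 7.01 to 10.3%, 14.0 to 18.5% and 9.92 to 11.7%. For these 3 genes the aged AAV-EGFP mice lay above both other groups. Mag did so too, with 44.8%, 36.6% and 38.6% in young, 50.6%, 46.7% and 46.6% in aged AAV-EGFP and 43.5%, 37.4% and 37.4% in aged AAV-B3GNT3 mice. With Ermn, 5 of the 9 members were higher without overlap in aged than in young AAV-EGFP mice, as were 16.1% of all genes thinned in the same way. With Cldn11, 5 were lower without overlap in aged AAV-B3GNT3 than in aged AAV-EGFP mice, as were 10.3% of all genes, and Mal, Mbp and Mobp overlapped in both comparisons. Thinned to 500 UMIs, Opalin, Cnp, Mog, Mag and Ermn were higher without overlap with ageing and lower with AAV-B3GNT3, as were 14.2% and 9.97% of all genes, whereas Cldn11 overlapped between the aged groups, with 13.1%, 15.8% and 15.6% in aged AAV-EGFP and 13.5%, 11.5% and 13.5% in aged AAV-B3GNT3 mice. Not thinned, Opalin was detected in 33.1 to 42.4%, 51.1 to 56.7% and 27.2 to 53.5% of nuclei, Mog in 69.1 to 72.9%, 74.6 to 80.5% and 61.5 to 78.8%, and Cnp in 16.7 to 20.4%, 23.2 to 29.4% and 17.0 to 24.6%. The aged AAV-EGFP group then stayed apart from the young group and overlapped the aged AAV-B3GNT3 group for all 3. Mag and Ermn then overlapped between young and aged AAV-EGFP mice, with mean shares turned to slightly lower in the aged (-0.971 and -0.174 percentage points), and Cldn11 overlapped between the aged groups (0.00342 percentage points). In excitatory neurons, which do not make myelin, thinning gave 0.0947 to 0.958% for Opalin, 0.351 to 1.01% for Mog and 0.602 to 1.09% for Cnp, at median depths of 8468 to 12303 UMIs before thinning against 1662 to 2513 in the oligodendrocytes. Mbp was detected in 88.9 to 95.6% of thinned oligodendrocyte nuclei in every mouse, so its share was close to its ceiling.

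Within oligodendrocytes the members were also read in the largest subcluster, called subcluster 0, with 12609 nuclei from all 9 mice. Aged AAV-EGFP replicates 2 and 3 contributed 160 and 155 nuclei to it, against 1128 to 2517 from each other mouse. Opalin had 314, 228 and 222 CPM of the subcluster total in young, 587, 542 and 588 in aged AAV-EGFP and 331, 216 and 371 in aged AAV-B3GNT3 mice. These values kept the aged AAV-EGFP mice apart from both other groups. Cnp had 103, 81.1 and 89.2, then 135, 173 and 129, then 122, 104 and 107 CPM, and Mog had 600.5, 608.5 and 609.6, then 916, 967 and 937, then 765, 595 and 773 CPM.

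In subcluster 0 all 3 genes were again called for ageing, Opalin at 1.16 (adjusted p = 0.00199), Cnp at 0.64 (adjusted p = 0.0258) and Mog at 0.62 (adjusted p = 0.0143), where 6.45% of all genes were called. For AAV-B3GNT3 only Opalin was called, at -0.99 (adjusted p = 0.0241), with Cnp at -0.46 (adjusted p = 0.147) and Mog at -0.48 (adjusted p = 0.0826), where 1.97% of all genes were called. Subcluster 1 held 5656 nuclei, most of them from aged AAV-EGFP mice, so it was compared with subcluster 0 within those 3 mice. Opalin had 519, 539 and 543 CPM in subcluster 1 of aged AAV-EGFP replicates 1 to 3, below the values in subcluster 0 in each mouse. Cnp had 171, 207 and 201 CPM in subcluster 1, above subcluster 0 in each mouse. Mog had 899, 1060 and 1034 CPM, below subcluster 0 in replicate 1 and above it in the other two. Subcluster 2, with 1940 nuclei and Enpp6, a gene of newly forming oligodendrocytes, among its leading genes, had 110.0 CPM of Opalin, 105 of Cnp and 860.4 of Mog. The levels of subcluster 2 are over all mice, and all of these are a description of the subclusters.

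**Figure D3:**
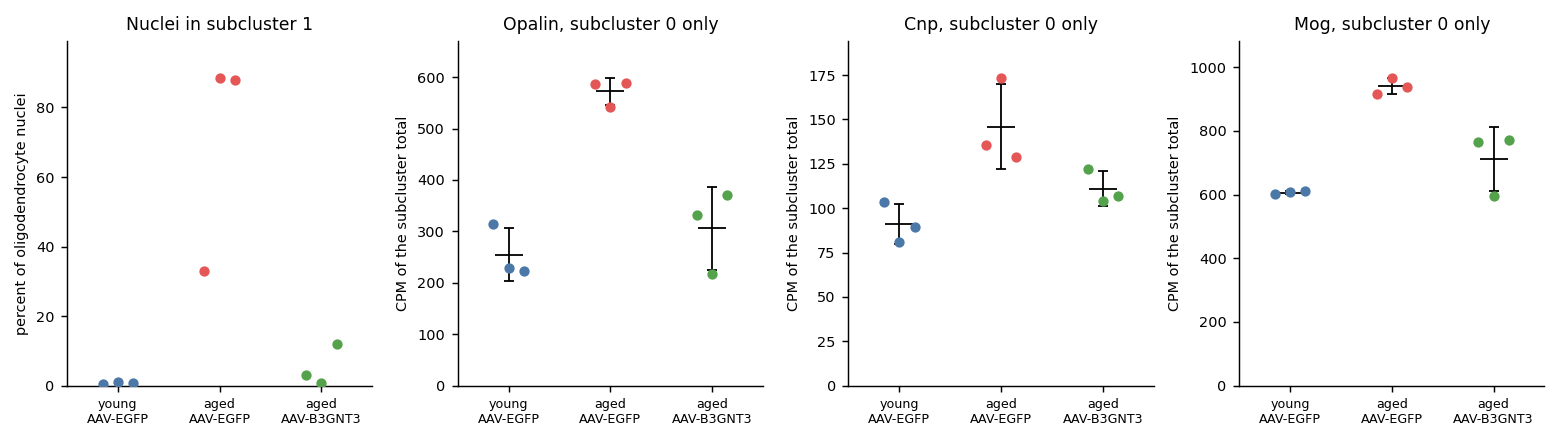
Percent of each mouse's oligodendrocyte nuclei in subcluster 1 (left) and the CPM of Opalin, Cnp and Mog within subcluster 0 (points, mice; long bar and whiskers, mean and SD; vertical axes from 0). Subcluster 1 holds 33.0 to 88.6% of nuclei in aged AAV-EGFP mice and at most 11.9% elsewhere, and within subcluster 0 the aged AAV-EGFP mice still lie highest for each gene.

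Free RNA in oligodendrocyte nuclei was estimated from the neuron genes, with the sum of all barcodes assumed to stand for its make-up. The estimate was 23.2 to 29.5% of UMIs in young, 12.8 to 19.3% in aged AAV-EGFP and 21.1 to 29.0% in aged AAV-B3GNT3 mice. Subtracting this free RNA removed 1.34 to 5.85% of the members' own UMIs and changed the totals more. After subtraction the 3 genes were called for ageing, Opalin at 0.92 (adjusted p = 0.0191), Cnp at 0.75 (adjusted p = 0.0225) and Mog at 0.49 (adjusted p = 0.0297), where 10.6% of all genes were called. For AAV-B3GNT3 Opalin was called at -0.81 (adjusted p = 0.0451), and Cnp (-0.68, adjusted p = 0.0563) and Mog (-0.42, adjusted p = 0.0816) were not, where 2.27% of all genes were called. The share of free RNA was lowest in the aged AAV-EGFP mice, the group in which the 3 genes were highest.

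Other genes of the myelin programme were taken as 5 lists, in the same oligodendrocyte fits, with changes on the log2 scale. The lists were chosen with earlier results of these data known, so their counts are a description only. Of all genes tested there, 21.3% were called for ageing (11.2% higher, 10.1% lower) and 9.12% for AAV-B3GNT3 (3.36% higher, 5.76% lower), and each count over all 9 libraries stands against these shares. Without both libraries that stood apart the shares were 0.836% and 1.02%, and the counts without them stand against those. Of 24 other myelin and node proteins, 6 rose and 1 fell with ageing (median log2 fold change 0.26), and 4 fell and 0 rose with AAV-B3GNT3 (median -0.34). Pmp22, a myelin membrane protein, rose by 1.11 (adjusted p = 0.00706), Pllp, a plasmolipin, by 0.74 (adjusted p = 0.0233), the tetraspanin Cd9 by 0.72 (adjusted p = 0.00360) and the receptor Gpr37 by 0.72 (adjusted p = 0.00678). Jam3, a junction adhesion molecule, fell by 0.50 (adjusted p = 0.0210). With AAV-B3GNT3, the small heat shock protein Cryab fell by 1.46 (adjusted p = 0.0120), Sept4 by 0.61 (adjusted p = 0.0125), Gpr37 by 0.52 (adjusted p = 0.0475) and Cd9 by 0.50 (adjusted p = 0.0319). Without both libraries that stood apart, 0 of the 24 were called for ageing (median 0.14) and 1 (Lpar1) for AAV-B3GNT3 (median -0.37). Only 1 aged AAV-EGFP library was left in such fits, so a lost call there does not show that a change rested on the libraries left out.

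Of 12 enzymes of myelin lipid synthesis, 1 rose and 1 fell with ageing, and 1 fell with AAV-B3GNT3, close to the shares over all genes. Scd2, a fatty acid desaturase, rose by 0.55 with ageing (adjusted p = 0.0139) and fell by 0.75 with AAV-B3GNT3 (adjusted p = 0.0106), and Far1, a fatty acyl reductase, fell by 0.49 with ageing (adjusted p = 0.0187). Of 14 regulators of the lineage, 5 rose with ageing (median 0.29) and 8 fell with AAV-B3GNT3 (median -0.55). The transcription factor Olig2 rose by 2.02 (adjusted p = 0.00964), Olig1 by 1.38 (adjusted p = 0.00891), Nkx2-2 2.004-fold (adjusted p = 0.0308) and Nkx6-2 by 0.88 (adjusted p = 0.00334). With AAV-B3GNT3 Olig2 fell by 1.88 (adjusted p = 0.0249), Olig1 by 1.31 (adjusted p = 0.0234), Nkx2-2 by 1.08 (adjusted p = 0.0392) and Tcf7l2 by 0.92 (adjusted p = 0.0254). Olig2 was also a leading gene of subcluster 1, and its aged AAV-EGFP mean was 84.0 ± 53.4 CPM (SD, n = 3) against 20.6 ± 4.62 in young. Without both libraries, 1 regulator (Sox10) was called for ageing (median 0.36) and 2 (Sox10 and Tcf7l2) for AAV-B3GNT3 (median -0.43). The lipid enzymes then gave 0 calls for ageing (median 0.25, against 0.07 with all libraries) and 1 (Ugt8a) for AAV-B3GNT3 (median -0.53, against -0.32).

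Of 10 genes of newly forming oligodendrocytes, 7 were tested and Bmp4, Casr and Neu4 were not, and 1 fell in each comparison: Rras2 by 1.61 with ageing (adjusted p = 0.00290) and Tcf7l2, which is also among the regulators, with AAV-B3GNT3. Of 14 genes of mature subtypes and reactive oligodendrocytes, Opalin apart, 9 rose and 0 fell with ageing (median 0.999), and 6 fell with AAV-B3GNT3 (median -0.73). The complement gene C4b rose by 3.10 (adjusted p = 0.00278), Hopx by 1.76 (adjusted p = 0.00424), the protease inhibitor Serpina3n by 1.65 (adjusted p = 0.0170) and Apoe by 1.16 (adjusted p = 0.00668). With AAV-B3GNT3 Hopx fell by 1.22 (adjusted p = 0.0275), Apoe by 1.16 (adjusted p = 0.0166), S100b by 1.08 (adjusted p = 0.00708) and transferrin, Trf, by 0.90 (adjusted p = 0.0137). Without both libraries C4b alone was called in each comparison, with medians of 0.62 and -0.67 over the list, and of the genes of newly forming oligodendrocytes none for ageing and Tcf7l2 for AAV-B3GNT3.

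RNA of the 9 genes was also counted in nuclei of classes that do not make myelin, where the counts can include free RNA. Mbp had a median of 2857 CPM of the class total in oligodendrocytes, against 207 in pericytes, 194 in microglia, 170.1 in brain endothelial cells, 157 in fibroblasts, 96.5 in oligodendrocyte precursors, 83.1 in excitatory neurons, 72.2 in astrocytes and 67.2 in inhibitory neurons. For 8 of the 9 genes oligodendrocytes held 74.3 to 89.1% of all UMIs in nuclei kept, and for Cnp only 56.3%, with 19.2% in excitatory and 10.5% in inhibitory neurons. Cnp was 13.6 times as high in oligodendrocytes as in excitatory neurons, against 141 times for Mog. Mobp was 132 times as high, but it helped to choose the class, so its value is a description only. Mal was the exception to the order of the classes. Its median was 282 CPM of the class total in oligodendrocytes and 264 in brain endothelial cells, where it had 530 UMIs in 795 nuclei. The endothelial values were 111, 150.1 and 197 CPM in young, 124, 264 and 438 in aged AAV-EGFP and 387, 286 and 314 in aged AAV-B3GNT3 mice, so that they overlapped those of oligodendrocytes. No other member overlapped between the 2 classes, and Mal had 39.9 CPM in pericytes and 36.8 in fibroblasts.

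The ratios between members differed between classes. Mobp helped to choose the oligodendrocyte class, so ratios with it are a description only. The Mbp to Mobp ratio was 1.29 to 2.85 over the 9 mice in oligodendrocytes and 1.55 to 2.79 in astrocytes, but 5.60 to 9.35 in excitatory neurons, with no overlap with oligodendrocytes, and 2.81 to 10.2 in inhibitory neurons, whose lowest mouse lay within the range of oligodendrocytes. The Cnp to Mog ratio had medians of 0.155 in oligodendrocytes, 1.31 in excitatory neurons, 1.39 in inhibitory neurons and 1.73 in astrocytes. The Opalin to Mog ratio had medians of 0.431, 0.524, 0.444 and 0.538 in the same classes, much closer to each other. The make-up of the free RNA was not measured, and its part in these ratios was not tested. Among excitatory neurons with no UMI of the other 8 genes, 33.8 to 54.6% had a UMI of Mbp. Unspliced and antisense reads and the long span of Mbp were not separated in these counts.

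**Figure D4:**
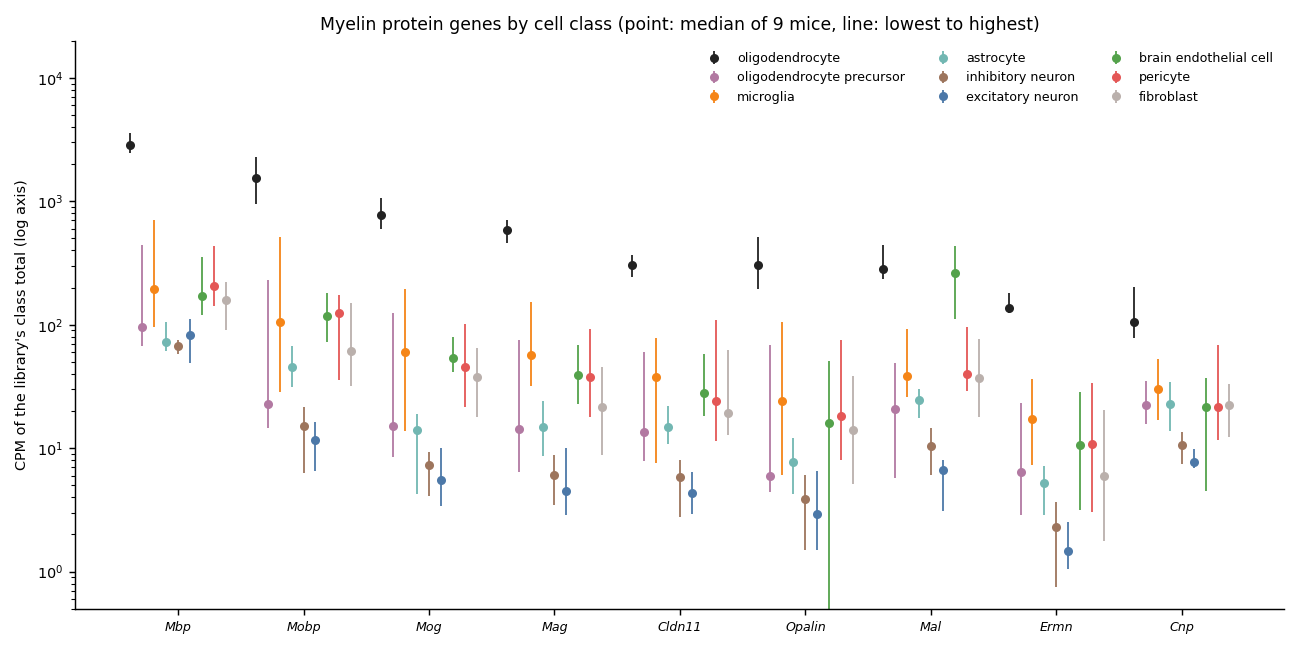
CPM of each gene over the class total (log axis) in 9 cell classes (colours), with the median of 9 mice (point) and the lowest to highest mouse (line, which leaves the axis for Opalin in endothelial cells, at 0 in its lowest mouse). The median is highest in oligodendrocytes for every gene, though Mobp helped to choose that class. Brain endothelial cells overlap them for Mal (264 against 282), and the distance to the neurons is smallest for Cnp, at 13.6-fold for excitatory neurons.

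In excitatory and inhibitory neurons, astrocytes, microglia and precursors, edgeR gave 2 calls with ageing and 0 with AAV-B3GNT3, in tests of all 9 genes in these 5 classes. The 2 calls were 1 of 9 in excitatory neurons and 1 of 9 in astrocytes, where 14.0% and 11.9% of all genes were called. Such counts are close to the shares over all genes, so they are not a result about the members as a set. With AAV-B3GNT3, an unadjusted p under 0.05 was seen for 2 members in excitatory neurons and in precursors, for 1 in inhibitory neurons and in astrocytes and for 0 in microglia. DESeq2 was not run in these classes. Mbp in excitatory neurons had 92.7, 98.2 and 87.5 CPM in young and 68.4, 60.4 and 45.8 CPM in aged AAV-EGFP mice, all of them lower. It fell by 0.67 (SE 0.17, adjusted p = 0.0247), and 14.0% of genes were called there with ageing and 2.26% with AAV-B3GNT3. In aged AAV-B3GNT3 mice it had 78.6, 104 and 66.3 CPM, which overlapped both groups. In inhibitory neurons Mbp had 61.3 to 68.1 CPM in young and 59.8 to 76.3 CPM in aged AAV-EGFP mice, at 0.05 (adjusted p = 0.836), where 2.99% of genes were called with ageing and 0.0583% with AAV-B3GNT3. Mobp in astrocytes had 58.3, 47.9 and 71.5 CPM in young, 32.2, 34.4 and 34.1 in aged AAV-EGFP and 42.4, 44.3 and 36.1 in aged AAV-B3GNT3 mice. It fell by 0.81 with ageing (SE 0.17, adjusted p = 0.00912), where 11.9% of genes were called, and 5.28% with AAV-B3GNT3. In microglia 0.0101% and 0.0% of genes were called in these comparisons, and in precursors 0.254% and 0.113%.

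Without aged AAV-EGFP replicates 2 and 3, neither of these changes was called, Mbp in excitatory neurons being at -0.44 (adjusted p = 0.354, with 0.0113% of all genes called) and Mobp in astrocytes at -0.83 (adjusted p = 0.173, with 1.52% called). The change with ageing differed between oligodendrocytes and excitatory neurons for 2 members, Mbp and Cnp, where 9.07% of genes were called for such a difference, and for 0 with AAV-B3GNT3, where 4.05% were. Without both libraries neither was called for ageing, and 2.79% of genes were. For AAV-B3GNT3, 2 members, Mbp and Cnp, had an unadjusted p under 0.05 by edgeR, and DESeq2 was not run. In oligodendrocyte precursors, Mbp had 447 CPM of the class total in young replicate 2 and 370.4 in aged AAV-EGFP replicate 1 against 67.1 to 172 in the other mice.

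**Figure D5:**
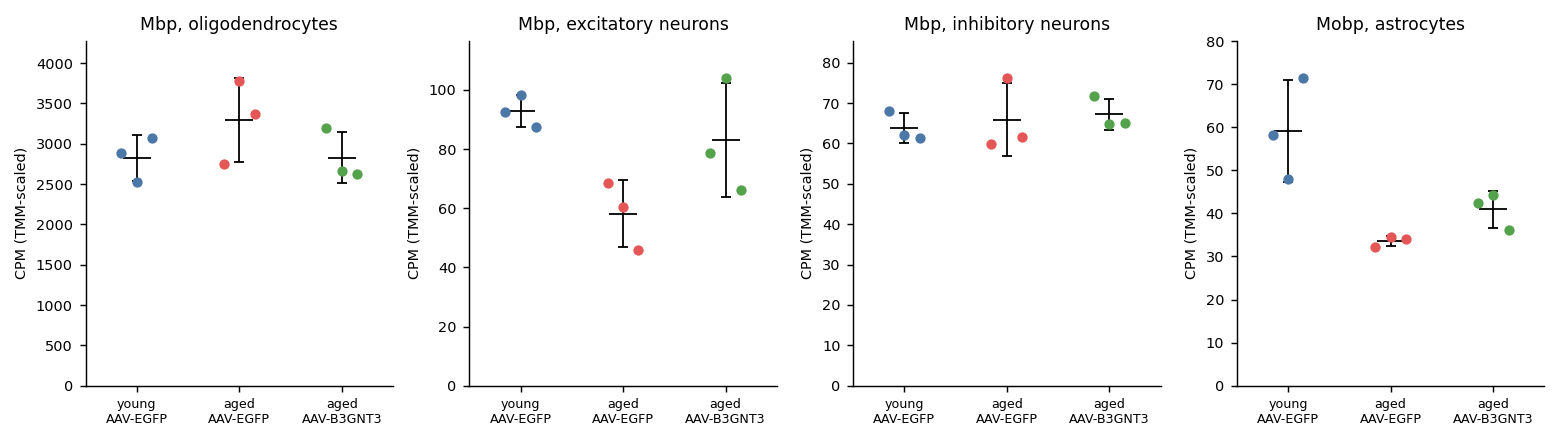
TMM-scaled CPM of Mbp in oligodendrocytes, excitatory and inhibitory neurons and of Mobp in astrocytes (vertical axes from 0, each with its own scale) for each mouse (points), with the mean and SD. Mbp is lower in all 3 aged AAV-EGFP mice (45.8 to 68.4) than in all young mice (87.5 to 98.2) in excitatory neurons, and overlaps in oligodendrocytes and inhibitory neurons.

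Summed over all nuclei kept, as tissue RNA would be, the same 3 genes rose with ageing. A larger share of oligodendrocytes and more RNA in each cannot be told apart in such sums, and oligodendrocytes made up 20.7 to 28.3% of nuclei in young against 27.8 to 33.5% in aged AAV-EGFP mice. Opalin had 36.8, 23.2 and 20.6 CPM in young and 58.6, 46.9 and 52.8 CPM in aged AAV-EGFP mice, with no overlap. It rose by 0.98 (adjusted p = 0.0315), Cnp by 0.61 (adjusted p = 0.0188) and Mog by 0.55 (adjusted p = 0.0303), where 12.8% of 19310 genes were called, 7.28% higher. With AAV-B3GNT3 edgeR called 0 of the 9, with 2 at an unadjusted p under 0.05, DESeq2 called 0, with 3, and 2.27% of all genes were called by edgeR and 10.8% by DESeq2. That count was unstable too: 439 genes by edgeR became 0 without aged AAV-EGFP replicate 2 or aged AAV-B3GNT3 replicate 1 or 2 (3274, 3089 and 3091 at an unadjusted p under 0.05), 110 without young replicate 3, 882 without young replicate 1, 945 without aged AAV-EGFP replicate 1 and 2358 without aged AAV-B3GNT3 replicate 3. Opalin was at -0.51 (95% interval -1.05 to 0.04, adjusted p = 0.230), Cnp at -0.40 (adjusted p = 0.0954) and Mobp at 0.51 (adjusted p = 0.137). The 3 calls for ageing hung on single libraries: leaving out young replicate 2 or 3, or aged AAV-EGFP replicate 2 or 3, ended all of them, and leaving out aged AAV-EGFP replicate 1 ended that of Opalin (adjusted p = 0.0506 by edgeR). Without the first 4 libraries in turn, the log2 fold changes ran from 0.81 to 1.05 for Opalin, from 0.53 to 0.58 for Cnp and from 0.50 to 0.59 for Mog. The count over all genes fell from 2469 to 31 without young replicate 3, and to 53 and 50 without aged AAV-EGFP replicate 2 or 3. Without both libraries that stood apart, edgeR called 0 members, with 4 at an unadjusted p under 0.05, and 0.00501% of all genes.

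Over 81 sums of UMIs (9 classes in each of 9 mice), the genes most like the mean of the 9 members included the selection marker Prr5l (Pearson r = 0.970), the long non-coding RNA C030029H02Rik (0.970), the selection marker St18 (0.955) and the deubiquitinase Otud7b (0.950), among 6486 genes. Sums of 1 library share its depth, and the classes set most of this likeness, so it is a description only. Each member also resembled the mean of the other 8, from 0.851 for Mal and 0.870 for Cnp to 0.982 for Mog. In oligodendrocytes C030029H02Rik rose with ageing by 0.85 on the log2 scale (adjusted p = 0.0102), and with AAV-B3GNT3 it was at -0.23 (adjusted p = 0.487). St18 and Prr5l chose the class, so no test is given for them.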

How the data were processed

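Single-nucleus RNA was sequenced with the 10x Genomics 3′ v3.1 chemistry. The deposited matrices hold raw UMI counts per gene and barcode, made by the authors on mm10 (GRCm38) with Cell Ranger and filtered to barcodes it called as nuclei. The submitters' processing notes name version 4.0.0 and the matrix headers 7.2.0, and whether intronic reads were counted is not given in the sources used here. The authors went on to remove free RNA and doublets, and the deposited values are whole numbers.

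Barcodes passed with 200 to 5000 genes and mitochondrial UMIs of 10% or less (74895 of 77823 barcodes), and doublets scored per library were removed at a preset 0.8% per 1000 barcodes (5.07 to 8.21%), leaving 70336. Clusters came from 2000 variable genes without the 9 members, 15 principal components, 20 neighbours and Leiden resolution 0.3 (scanpy 1.11.5), without integration. A cluster was named from 3 or more markers, each at 20% or more of its highest cluster and in 10% or more of nuclei, and stayed unnamed where another class had 50% or more of its markers. These limits were set after the clusters were seen. UMIs were summed per mouse and class, passed through filterByExpr with a minimum count of 10, TMM-scaled and tested two-sided with the quasi-likelihood test of edgeR 4.0.16, all 9 mice in 1 fit, Benjamini-Hochberg over all genes, threshold 0.05. SEs were derived from the F statistic. The edgeR step was checked on simulated counts. It recovered 58.6% of 99 changes of size 1 on the log2 scale and 96.9% of 96 changes of size 2, with 8 false calls. A test not passed therefore does not show that a gene was unchanged. DESeq2 1.42.0, other scaling, filters, clusterings and left-out libraries were alternatives. Free RNA was estimated from neuron genes in oligodendrocytes and subtracted in 1 alternative.

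Named genes were all 9 members, in each list the called genes with the largest change (up to 4 a direction), and the 5 genes most like the members, of which 1 is not reported here. The members and lists were chosen with earlier results of these data known. Replicate samples differed by 5.37 to 17.2 times sampling noise (chi-square per degree of freedom). The p-values measure only the spread between these mice. The numbers of replicates paired young with aged AAV-EGFP mice weakly (r = 0.14 to 0.36 over 3 pairs, from the data, since no label ties a number to a litter or day) and not the other groups (r from -0.31 over all 9 pairs), while the main design, set without a block, was kept.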

Additional observations from a re-analysis of the deposited data

Results flagged for a closer look

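The change of Mbp with ageing differed between oligodendrocytes and excitatory neurons, by 0.90 on the log2 scale (oligodendrocytes minus neurons, SE 0.23, adjusted p = 0.0221 by edgeR with the mouse as a block). Mbp had 2879.6, 2520.2 and 3073 CPM in young and 2749, 3782 and 3365 CPM in aged AAV-EGFP oligodendrocytes, and 92.7, 98.2 and 87.5 against 68.4, 60.4 and 45.8 CPM in excitatory neurons. The difference thus came with a fall in the neurons in 3 of 3 aged mice.

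Cnp showed such a difference too, of 0.71 (SE 0.19, adjusted p = 0.0280). Of 16557 genes tested, 9.07% were called for this difference, and the other 7 members were not. Without aged AAV-EGFP replicates 2 and 3 the differences were 0.31 for Mbp (adjusted p = 0.659) and 0.29 for Cnp (adjusted p = 0.654), with 2.79% of all genes called. RNA of neuron genes in oligodendrocytes and the subcluster of aged AAV-EGFP nuclei moved with the same groups, and their part in these differences was not tested.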

How the results depend on the processing

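In oligodendrocytes ageing called 3 members, with 3 to 5 when 1 replicate was left out (5 without aged AAV-EGFP replicate 1) and 0 when aged AAV-EGFP replicates 2 and 3 were both left out. AAV-B3GNT3 also called 3, with 0 to 5 when 1 replicate was left out (0 without aged AAV-B3GNT3 replicate 2, 5 without aged AAV-EGFP replicate 1), 0 without aged AAV-EGFP replicates 2 and 3, 0 with the members kept among the clustering genes (3 at an unadjusted p under 0.05 by edgeR), 1 in the largest subcluster, 1 after subtraction of free RNA and 5 with no filter on low counts. Among all genes, AAV-B3GNT3 called 1717 of 13646 without aged AAV-EGFP replicate 1 and 2206 of 22723 with no filter. The comparison of AAV-B3GNT3 with young mice called 0 members in oligodendrocytes in every alternative. Over all nuclei kept it called Mog without aged AAV-B3GNT3 replicate 2 (0.58, adjusted p = 0.0342 by edgeR), where 438 of 19644 genes were called. With raw totals it also called Mog (0.61, adjusted p = 0.0386 by edgeR), where 1133 of 19310 genes were called, 1050 higher and 83 lower. Over all nuclei kept, ageing called 3, with 0 to 3 when 1 replicate was left out (0 without young or aged AAV-EGFP replicate 2 or 3) and 0 without both aged libraries that stood apart. In UMIs per nucleus, 3 members were without overlap for ageing and 0 for AAV-B3GNT3, against 47.5% and 33.7% of all genes. With 1 replicate left out the counts were 3 to 7 (7 without aged AAV-EGFP replicate 3) and 1 to 2. No share over all genes stands beside these last counts, and fewer mice overlap less easily, so they are a description only. With the replicate number as a block, oligodendrocytes gave 4 calls for ageing and 4 for AAV-B3GNT3, Mag in addition each time, and 0 against young, and all nuclei gave 3 and 0. Same-numbered samples had r from -0.31 to 0.36, over 0.1 in 4 of 9 pairs, and 10 of 18 best matches were with the own number.

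Of the shares of nuclei without overlap after thinning to 1000 UMIs, those not thinned turned direction for Mag (-0.971 percentage points) and Ermn (-0.174) with ageing and for Cldn11 (0.00342) with AAV-B3GNT3. Of log2 fold changes of single genes under alternatives, 882 kept direction and side of the threshold, 35 lost and 13 gained the threshold, and 60 changed sign, all of them below the threshold in both fits. Over all genes, AAV-B3GNT3 called 1207 (445 higher, 762 lower), against 1381 (794 higher, 587 lower) with raw totals, which shifted the median gene by 0.10, 2206 with no filter, 706 with only the groups compared, 205 with members kept, 249 in the largest subcluster, 263 after subtraction of free RNA, 540 and 525 without aged AAV-EGFP replicate 2 or 3, 557 and 68 without aged AAV-B3GNT3 replicate 1 or 2 and 143 without aged AAV-EGFP replicates 2 and 3. Ageing called 2820, against 1325 with members kept, 816 in the largest subcluster, 1229 after subtraction, 1573 without young replicate 2, 1822 and 1431 without aged AAV-EGFP replicate 2 or 3 and 117 without both libraries. The causes were not tested. With 3 mice a group, exact tests could not go below p = 0.1.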
